A study of Aspergillus nidulans with 24 samples.

Results

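This account describes 70 genes of the filamentous fungus Aspergillus nidulans that stood apart from all other strains of the study in a strain making a foreign beta-glucosidase (BglC). A gene was kept when its mean log2(FPKM + 1) in BglC differed by at least 0.7 in one direction from each of the 3 other strains at 2 h and again at 8 h. FPKM is a level scaled for the length of the gene and the size of the library. Of 10628 genes, 37 (0.348%) were higher and 33 (0.311%) were lower in BglC by this rule. That balance depended on the scaling: with median-of-ratios scaling 61 were higher and 13 lower, and only 13 of the 33 lower genes still met the rule. The genes were chosen by the FPKM differences of BglC from the other strains, so these are given below as a description, with no test. The word margin is used for the smallest of a gene's 6 differences between BglC and another strain. Of the 70 genes, 65 were in the table of gene names and 3 had a symbol there, so most are known here by an ID alone.

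The 8 groups were 4 strains at 2 h and at 8 h in minimal medium with 2% maltose at 37 °C, after growth on 1% glucose, with 3 libraries in each. BglC made a beta-glucosidase, AbfA an alpha-arabinofuranosidase of family GH51, and 1542 a heat-stable mannanase of family GH5. The parent A773 carried pyrG89, wA3 and pyroA4 and made none of them. The labels give neither the marker alleles that the recombinants kept, nor the site of the introduced gene, nor whether a strain was 1 transformant. They do not say which strain was given which supplement (pyridoxine, or uracil with uridine), so the strain, its supplements and its introduced gene cannot be told apart. The introduced BglC gene read 5805 to 9177 FPKM in the 6 BglC libraries and at most 1.98 FPKM in the other 18. Libraries held 7140121 to 32309717 reads on genes. The labels call the libraries biological triplicates. The p-values below measure the spread between libraries of a group, pooled for each gene over all 8 groups, with no pairing unless stated.

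Beta-glucosidases cut glucose off the ends of short beta-linked sugars, and fungi secrete them to use plant cell walls. In A. nidulans the genes of a secondary metabolite, such as the mycotoxin sterigmatocystin, lie side by side on a chromosome and are often switched on together. Genes that break down some nutrients lie together too, among them the genes for tyrosine and phenylalanine breakdown through homogentisate. A group of neighbours that moves as one is therefore a common form of response in this fungus. Maltose induces the promoters of starch-degrading enzymes, and the labels name promoter activation as its purpose here.

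The higher genes ran from faint to abundant. Their group means had a median of 22.6 FPKM in BglC at 2 h, against 3.42 in AbfA, 4.20 in 1542 and 3.47 in A773. At 8 h the medians were 15.2 FPKM in BglC, 3.98 in AbfA, 2.37 in 1542 and 2.66 in A773. The median margin of the higher genes was 0.95, and 14 of 37 had a margin of at least 1. The lower genes were set apart by less, with a median margin of 0.80 and 4 of 33 at 1 or more. Their group means had a median of 10.7 FPKM in BglC at 2 h, against 35.5 in AbfA, 41.8 in 1542 and 22.6 in A773. At 8 h the medians were 11.1, 38.9, 31.5 and 27.6 FPKM in BglC, AbfA, 1542 and A773. Over all 9198 genes that passed the filter on low values, the median difference of BglC from another strain lay between -0.14 and -0.06. All 70 genes passed that filter, which asks for 1 FPKM in 3 libraries.

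All 3 BglC libraries lay above all 9 others for 21 of the 37 higher genes at 2 h and for 28 at 8 h. Among all genes passing the filter this held for 4.37% at 2 h and 3.84% at 8 h. It held at both times for 16 higher genes, against 0.794% of all genes. For the lower genes, BglC lay below all 9 others for 21 of 33 at 2 h, 25 at 8 h and 16 at both, against 11.3%, 8.64% and 2.90% of all genes. The rule used these same values, so nothing is read from the excess. The same rule applied to the other strains gave 67 higher and 3 lower genes for AbfA, 40 and 14 for 1542, and 1 and 47 for A773.

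**Figure D1:**
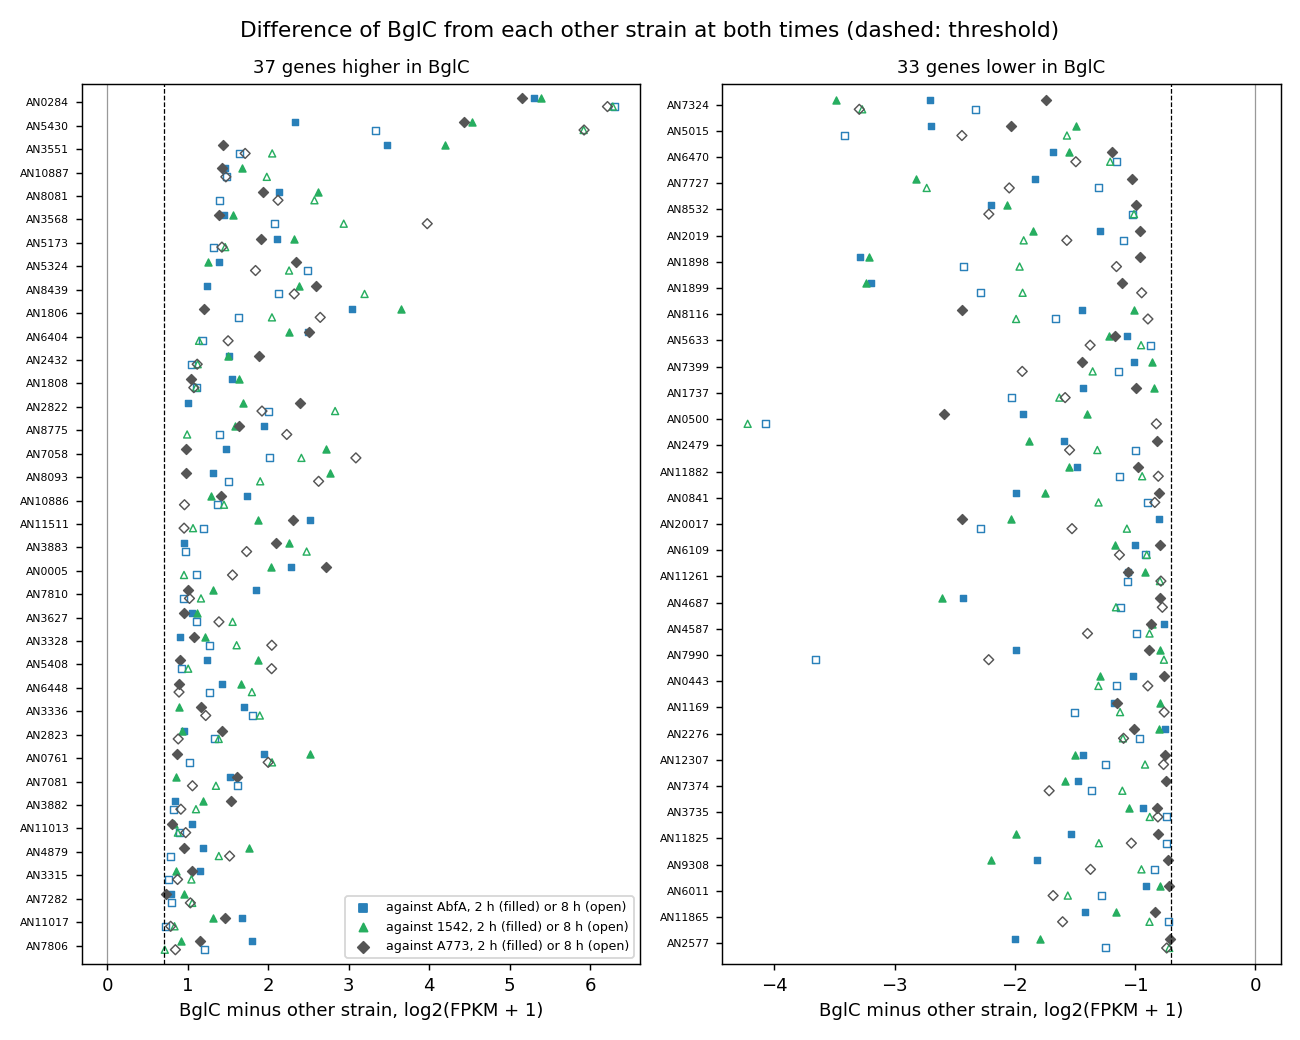
Difference of BglC from AbfA, 1542 and A773 in mean log2(FPKM + 1) for each of the 37 higher genes (left) and 33 lower genes (right), filled at 2 h and open at 8 h, with the rule's threshold of 0.7 dashed. AN0284 lies furthest to the right, with all 6 differences between 5.15 and 6.31, and most other genes lie close to the threshold in at least 1 comparison.

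The edge of the rule was crowded. The last higher genes inside it were AN7806 (margin 0.713), AN11017 (0.721) and AN7282 (0.734), and the first outside were AN10759 (0.698), AN7816 (0.689) and AN3554 (0.687). The last lower genes inside were AN2577 (0.705), AN11865 (0.718) and AN6011 (0.719). Just outside were AN1895 (0.697), AN8660 (0.693) and AN1673 (0.686). AN1895 is maiA, the gene of maleylacetoacetate isomerase, and it is described below with its neighbours.

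AN0284 was the gene set apart most widely. In the BglC libraries it read 53.5, 59.9 and 71.8 FPKM at 2 h and 131, 108 and 124 FPKM at 8 h. At 2 h it read 0.588, 0.826 and 0.367 FPKM in AbfA, 0.594, 0.430 and 0.434 in 1542, and 0.754, 0.838 and 0.672 in A773. At 8 h the values were 0.551, 0.591 and 0.471 FPKM in AbfA, 0.555, 0.665 and 0.481 in 1542, and 0.604, 0.695 and 0.618 in A773. Every library of the 3 other strains was thus below 1 FPKM and every BglC library above 50. These levels rested on 3058 reads in BglC at 2 h and 6623 at 8 h, against 18 to 37 reads in each other group. The ratio of mean FPKM was 104 to AbfA, 127 to 1542 and 81.8 to A773 at 2 h, and 225, 214 and 190 to the same strains at 8 h. These ratios are of linear FPKM and rest on few reads in their denominators.

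The neighbours of AN0284 did not share this. Among the 4 genes on each side in the order of the RefSeq table, none was set apart from all 3 strains by 0.7 at both times. AN0285, next to it, differed by 0.02 to 0.73 over the 6 comparisons. AN0283, on the other side, averaged at most 0.502 FPKM in any group. AN10051 was higher in BglC than in A773 by 1.98 at 2 h, and its other 5 differences ran from -0.31 to 0.59.

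**Figure D2:**
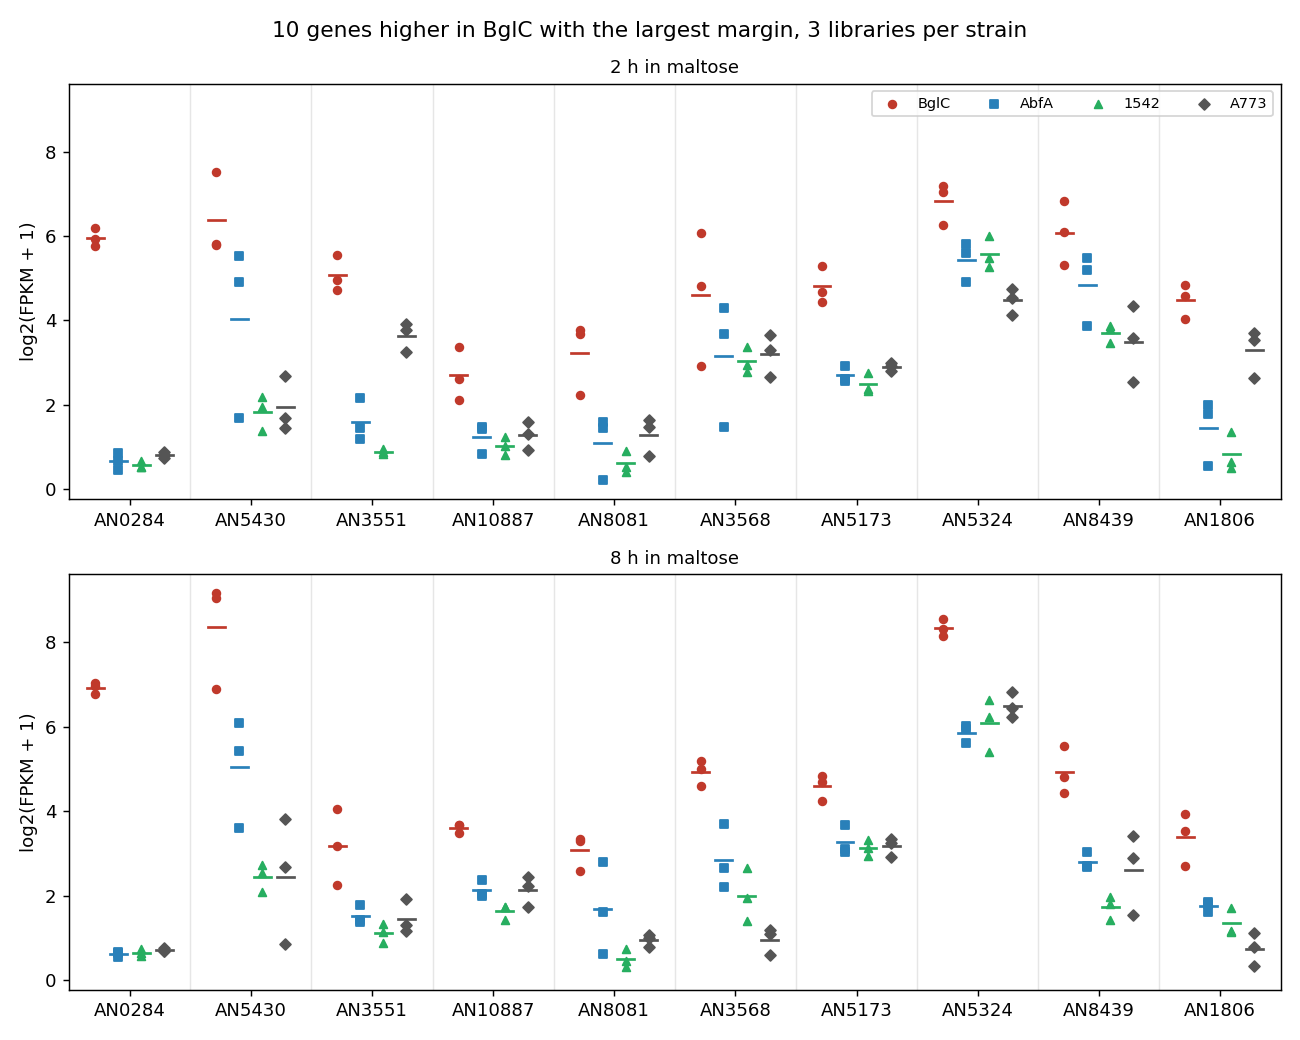
Levels, as log2(FPKM + 1), of the 10 higher genes with the largest margin, at 2 h (top) and 8 h (bottom), with 1 point per library and a bar at each group mean. The BglC points of AN0284 sit near 6 to 7 while every other strain sits below 1, and the other genes show smaller gaps, with overlap at 1 time for AN3568, AN8081 and AN8439.

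AN5430 followed, with wide spread in BglC and in AbfA. It read 53.9, 55.3 and 183 FPKM in BglC at 2 h, against 2.22, 28.9 and 45.0 in AbfA, 1.61, 3.58 and 2.86 in 1542, and 5.40, 2.20 and 1.75 in A773. The 8 h values were 118, 526 and 573 FPKM in BglC, 41.8, 11.2 and 67.5 in AbfA, 5.64, 3.23 and 4.82 in 1542, and 5.35, 13.2 and 0.797 in A773. All BglC libraries exceeded all others at both times, and AbfA held the next highest values.

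AN5324 and AN5173 were higher in BglC in all libraries with moderate spread. AN5324 read 282, 319.6 and 377 FPKM in BglC at 8 h, against 63.7, 61.0 and 47.8 in AbfA, 74.1, 97.8 and 41.3 in 1542, and 74.7, 112 and 86.3 in A773. At 2 h its mean was 117 ± 36.3 FPKM in BglC, 44.1 ± 13.6 in AbfA, 48.1 ± 13.3 in 1542 and 21.6 ± 4.67 in A773 (SD, n = 3 each). AN5173 averaged 27.96 ± 9.23 FPKM in BglC at 2 h, 5.52 ± 0.865 in AbfA, 4.65 ± 0.948 in 1542 and 6.50 ± 0.478 in A773 (SD, n = 3 each). At 8 h it averaged 23.5 ± 5.12, 8.85 ± 2.52, 7.79 ± 1.19 and 8.06 ± 1.35 FPKM in BglC, AbfA, 1542 and A773.

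The most abundant higher genes, named here after their values were seen, were AN2432 and AN6404. AN2432 read 2738, 2476 and 3484 FPKM in BglC at 2 h, against 1401, 972 and 750.2 in AbfA, 1073, 1027 and 943 in 1542, and 830.3, 728 and 783 in A773. At 8 h it read 1614, 1620.0 and 1557 FPKM in BglC, 708, 753 and 863 in AbfA, 604, 733 and 891 in 1542, and 762, 674 and 776 in A773. The BglC libraries stood above all others at both times, and AbfA overlapped both 1542 and A773 at 2 h. AN6404 averaged 650.5 ± 245 FPKM in BglC at 2 h, 137 ± 89.3 in AbfA, 135 ± 54.6 in 1542 and 124 ± 67.6 in A773 (SD, n = 3 each). At 8 h its means were 758 ± 231, 350.1 ± 155, 361 ± 153 and 287 ± 140.5 FPKM in BglC, AbfA, 1542 and A773.

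A further set was high in BglC and intermediate in A773 at 2 h. AN3551 read 25.6, 45.7 and 30.0 FPKM in BglC at 2 h, against 1.30, 3.45 and 1.75 in AbfA, 0.777, 0.844 and 0.925 in 1542, and 14.04, 12.6 and 8.47 in A773. AN1806 read 15.4, 27.8 and 22.8 FPKM in BglC, 0.477, 2.44 and 2.999 in AbfA, 0.569, 1.55 and 0.422 in 1542, and 11.9, 10.5 and 5.26 in A773. In both genes all BglC libraries lay above all A773 libraries at 2 h, and these above all AbfA and 1542 libraries. AbfA and 1542 overlapped in AN1806 but not in AN3551, where AbfA lay above 1542. At 8 h A773 had left that place: AN1806 read 5.48, 14.4 and 10.5 FPKM in BglC, 2.48, 2.60 and 2.06 in AbfA, 2.29, 1.22 and 1.23 in 1542, and 1.17, 0.716 and 0.254 in A773.

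The remaining genes with a large margin were fainter or more scattered. AN8439 averaged 73.0 ± 37.2 FPKM in BglC at 2 h, 30.9 ± 15.5 in AbfA, 12.1 ± 1.86 in 1542 and 11.7 ± 7.23 in A773 (SD, n = 3 each). AN8081 averaged 9.37 ± 4.95, 1.30 ± 0.996, 0.544 ± 0.287 and 1.53 ± 0.723 FPKM in the same order. AN3568 was uneven within BglC, at 66.5, 6.53 and 27.1 FPKM at 2 h, where its lowest BglC library fell among AbfA (1.803, 11.7 and 18.6), 1542 (9.42, 6.73 and 5.86) and A773 (8.91, 5.36 and 11.7). Without replicate 1 of BglC at both times, AN3568 no longer met the rule. Of the higher genes, 11 stayed under 10 FPKM in all 8 groups.

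AN3627 and AN3328 were steadier across libraries. AN3627 read 214, 220.5 and 241 FPKM in BglC at 2 h, against 75.6, 121 and 138 in AbfA, 122, 86.5 and 105 in 1542, and 120.2, 104 and 124 in A773. It averaged 227 ± 14.6 FPKM in BglC at 8 h, 105 ± 13.1 in AbfA, 79.5 ± 25.5 in 1542 and 87.0 ± 16.2 in A773 (SD, n = 3 each), with no overlap at either time. AN3328 read 43.3, 39.5 and 47.6 FPKM in BglC at 8 h, against 18.3, 17.9 and 15.97 in AbfA, 12.6, 9.05 and 21.6 in 1542, and 9.54, 10.8 and 8.98 in A773, again with no overlap.

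AN8093, AN5408, AN0761 and AN4879 were of middling level and widest from A773 or 1542. AN8093 read 14.4, 24.1 and 23.1 FPKM in BglC at 8 h, against 9.17, 5.54 and 5.07 in AbfA, 4.34, 5.05 and 4.54 in 1542, and 3.83, 3.19 and 0.953 in A773. At 2 h its lowest BglC library, at 18.9 FPKM, lay below the highest AbfA (22.9) and A773 (23.6) libraries. AN5408 averaged 15.2 ± 4.62 FPKM in BglC at 8 h, 7.38 ± 1.22 in AbfA, 6.91 ± 1.34 in 1542 and 3.04 ± 1.52 in A773, and AN0761 averaged 6.35 ± 1.98, 2.57 ± 0.634, 0.769 ± 0.409 and 0.829 ± 0.428 FPKM (SD, n = 3 each). AN4879 averaged 19.2 ± 1.53, 10.8 ± 2.02, 6.81 ± 1.45 and 6.21 ± 1.81 FPKM at 8 h in the same order. AN8775 was the most uneven, with 0.997, 23.8 and 14.5 FPKM in BglC at 8 h, so that its replicate 1 fell among the other strains (2.54, 3.82 and 1.45 in AbfA, 3.69, 2.29 and 5.32 in 1542, 0.689, 2.34 and 0.319 in A773).

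AN11511 and AN0005 stood further from the other strains at 2 h than at 8 h. AN11511 averaged 16.2 ± 3.80 FPKM in BglC at 2 h, 1.96 ± 0.390 in AbfA, 4.20 ± 3.21 in 1542 and 2.69 ± 1.89 in A773, and AN0005 averaged 22.6 ± 10.6, 3.42 ± 0.195, 4.61 ± 2.48 and 2.32 ± 0.602 FPKM (SD, n = 3 each). AN3336, AN3315 and AN7282 were faint. AN3336 read 4.32, 2.58 and 7.35 FPKM in BglC at 2 h and at most 2.19 FPKM in any library of another strain. AN3315 and AN7282 averaged 3.75 and 2.36 FPKM in BglC at 2 h, and no more than 1.49 and 0.988 FPKM in another strain.

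Several higher genes were neighbours. In all, 13 of the 70 genes had another within 2 genes in the order of the table, 11 of them higher and 2 lower. The members that lay side by side formed 6 pairs, each with both genes moving in 1 direction. Neither count was made for genes taken from the whole table, so nothing is read from them. The genes AN10887, AN10886 and AN7081 lay in a row beside AN7083 (fma-AT) and AN7084 (fma-PKS). By their symbols these 2 belong with fumagillin synthesis, known from Aspergillus fumigatus, where fma-PKS is a polyketide synthase and fma-AT an acyltransferase.

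AN10886 read 20.2, 17.3 and 45.1 FPKM in BglC at 2 h, against 5.91, 8.35 and 6.54 in AbfA, 9.03, 8.62 and 11.8 in 1542, and 12.6, 9.67 and 5.50 in A773. The 8 h values were 36.6, 39.6 and 50.4 FPKM in BglC, 16.4, 13.6 and 16.9 in AbfA, 16.5, 14.2 and 13.5 in 1542, and 21.4, 22.2 and 19.6 in A773. The BglC libraries lay above all others at both times. AN10887 averaged 11.2 ± 0.954 FPKM in BglC at 8 h, 3.41 ± 0.628 in AbfA, 2.10 ± 0.364 in 1542 and 3.48 ± 1.06 in A773, and AN7081 averaged 30.8 ± 5.00, 9.30 ± 1.03, 11.4 ± 1.44 and 14.3 ± 2.20 FPKM (SD, n = 3 each). The neighbours fma-AT and fma-PKS were also higher in BglC in all 6 comparisons, by 0.42 to 1.55 and by 0.33 to 1.03, and so missed the rule. On the far side AN7080 was higher by 0.10 to 0.83.

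AN2823 and AN2822 lay side by side, as did AN3883 and AN3882. AN2822 read 43.2, 65.3 and 83.6 FPKM in BglC at 8 h, against 13.1, 19.6 and 12.2 in AbfA, 7.16, 9.45 and 7.09 in 1542, and 16.6, 17.1 and 13.4 in A773. AN2823 averaged 32.6 ± 7.28 FPKM in BglC at 8 h, 12.2 ± 2.20 in AbfA, 11.7 ± 0.972 in 1542 and 17.0 ± 1.85 in A773 (SD, n = 3 each). Both pairs were higher in BglC than in any other strain, and the genes beyond them that were measured did not meet the rule. AN2824, next to AN2823, had no FPKM values. Beyond AN3882, AN3881 and AN3880 were lower in BglC than in AbfA and 1542 at both times. AN3883 read 10.96, 18.3 and 15.2 FPKM in BglC at 2 h, against 11.9, 5.35 and 5.27 in AbfA, 2.68, 1.78 and 2.30 in 1542, and 3.19, 2.20 and 2.58 in A773. Its AbfA replicate 1 overlapped BglC, and AbfA was the strain nearest to BglC. AN1808, 2 genes from AN1806, was faint, at 2.77, 3.74 and 3.35 FPKM in BglC at 2 h and at most 1.47 FPKM in any library of another strain.

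**Figure D3:**
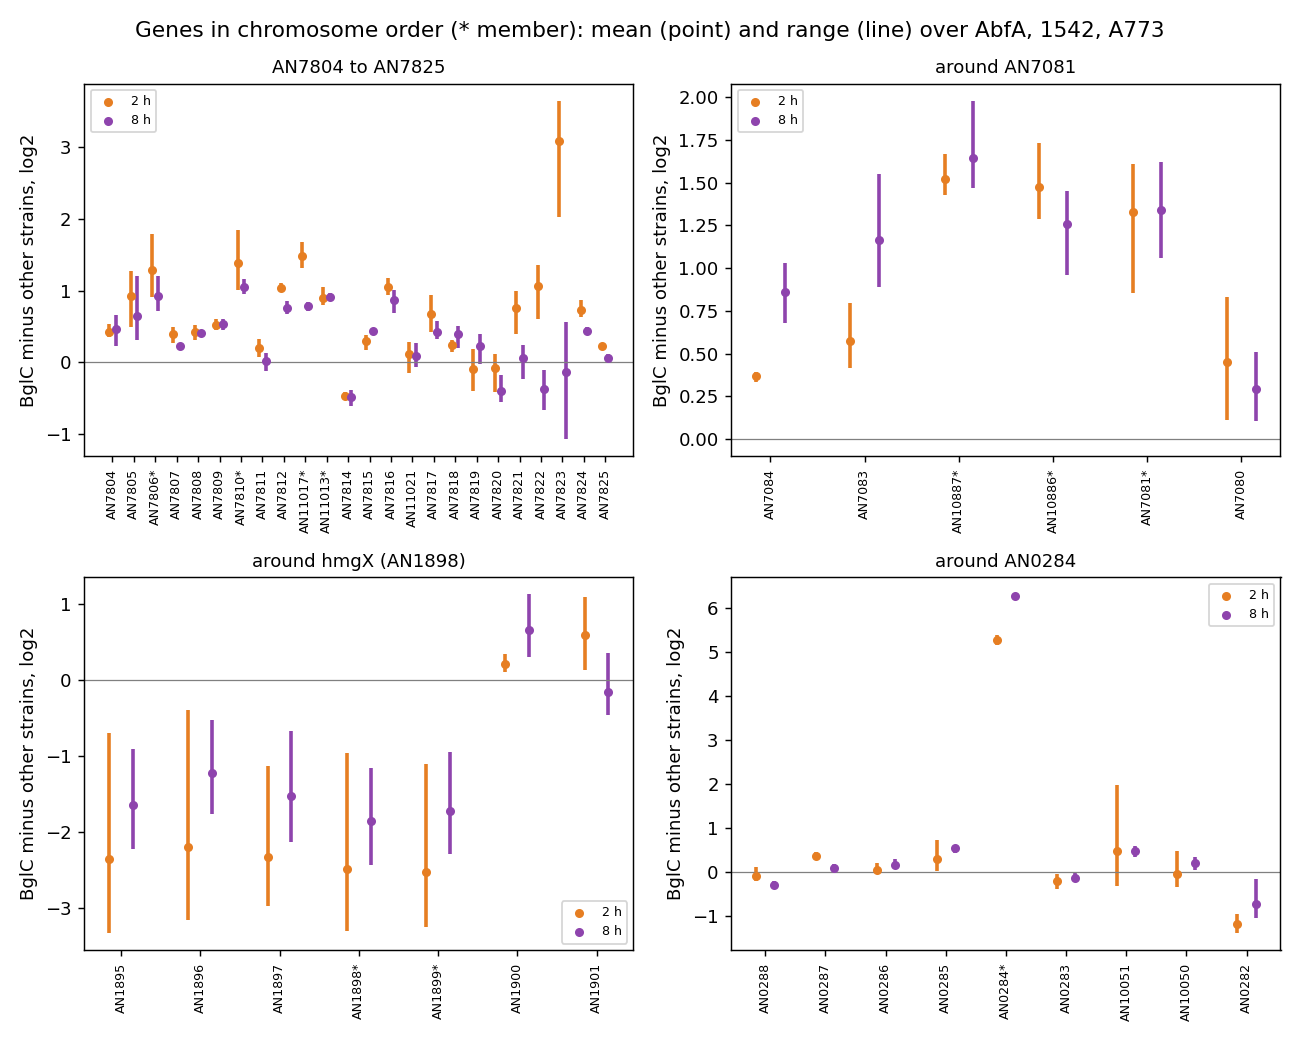
Difference of BglC from the other strains in log2(FPKM + 1) along 4 stretches of neighbouring genes, with the mean (point) and range (line) over AbfA, 1542 and A773 at 2 h (orange) and 8 h (purple); an asterisk marks genes that meet the rule. AN0284 stands alone among its neighbours at 5.15 or more, the 5 genes from AN1895 to AN1899 are all below 0, and AN7081 and its 2 member neighbours are all above 0.8.

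Sterigmatocystin is a mycotoxin whose genes lie together from AN7804 to AN7825, a span taken from textbook knowledge and not from the names table. The table of FPKM held 24 genes of this stretch, and 4 of them met the rule as higher, AN7806, AN7810, AN11017 (tpcL in the names table) and AN11013. Of the 24, 18 passed the filter. Among these 11, the 4 members included, averaged highest in BglC at both times, against 8.73% of all genes passing it, which was not tested. Others went the other way: AN7814 was lower in BglC by 0.38 to 0.60 in all 6 comparisons. AN7820 and AN7822 were lower in BglC than in all 3 strains at 8 h. The 4 members are described here. Their levels were low. AN7806 read 4.68, 6.12 and 4.38 FPKM in BglC at 2 h, against 1.25, 0.626 and 0.438 in AbfA, 2.75, 1.13 and 3.10 in 1542, and 2.43, 1.08 and 1.82 in A773.

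At 8 h replicate 1 of BglC read far above the other BglC libraries for these 4 genes. AN7806 read 11.7 FPKM in replicate 1 of BglC but 0.730 and 1.496 in replicates 2 and 3, against 0.164, 0.881 and 1.03 in AbfA, 1.56, 1.68 and 0.819 in 1542, and 0.917, 1.35 and 1.10 in A773. AN11013 read 7.18, 0.324 and 0.304 FPKM in BglC at 8 h, AN7810 read 4.34, 1.05 and 0.480, and AN11017 read 4.16, 0.0983 and 0. None of the 4 met the rule without replicate 1 of BglC at both times. The same held for AN6448, which belongs to the span listed for the metabolite cichorine and read 9.23, 2.12 and 1.60 FPKM in BglC at 8 h. Of the 7 genes listed for cichorine, only 1 averaged highest in BglC at both times. Their median difference of BglC from AbfA, 1542 and A773 was -0.25, 0.46 and 0.75 at 2 h. At 8 h it was -0.49, 0.10 and -2.09, so the listed genes as a set were not raised in BglC. In the lists of pathways and cell types kept for this fungus, 181 genes were in the table, of which AN7806, AN7810 and AN6448 were the only ones among the 70, and 20 of 22 lists held none. Of all 10628 genes the rule kept only 0.348% as higher and 0.311% as lower, so nothing is read from these counts.

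Among the lower genes, AN7324 was set apart most. It read 1.81, 2.38 and 0.915 FPKM in BglC at 2 h, against 17.8, 14.2 and 16.6 in AbfA, 25.4, 28.02 and 32.4 in 1542, and 7.44, 8.29 and 7.69 in A773. At 8 h it read 4.12, 2.33 and 1.77 FPKM in BglC, 17.2, 18.1 and 16.1 in AbfA, 32.3, 31.8 and 37.9 in 1542, and 33.3, 34.2 and 35.9 in A773. The 4 strains did not overlap at 2 h, and at 8 h 1542 and A773 lay together.

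AN7727 was lower in BglC at a higher level of expression. It read 38.2, 49.3 and 30.9 FPKM in BglC at 2 h, against 70.7, 178 and 219 in AbfA, 277, 317 and 252 in 1542, and 82.5, 90.3 and 68.7 in A773. The 8 h values were 33.8, 38.4 and 38.0 FPKM in BglC, 95.1, 97.5 and 83.5 in AbfA, 226, 259 and 265 in 1542, and 156, 136 and 174 in A773. BglC lay below every other library at both times.

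AN5015 and AN6470 were lower in BglC on average, but their replicate 1 of BglC lay close to the other strains. AN5015 read 80.4, 10.4 and 21.0 FPKM in BglC at 2 h, against 224, 158 and 155 in AbfA, 80.9, 48.2 and 112 in 1542, and 90.2, 104 and 146 in A773. AN6470 read 90.3, 31.3 and 15.8 FPKM in BglC at 8 h, against 79.0, 62.2 and 107 in AbfA, 58.6, 101 and 99.0 in 1542, and 81.3, 98.0 and 135 in A773. The groups overlap in both through that library, and both genes met the rule with it left out.

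Smaller and steadier gaps were seen in AN5633, AN3735 and AN2276. AN5633 averaged 6.67 ± 1.45 FPKM in BglC at 2 h, 14.9 ± 1.36 in AbfA, 16.7 ± 0.222 in 1542 and 16.1 ± 1.52 in A773, and 6.71 ± 0.610, 13.2 ± 1.95, 13.9 ± 1.31 and 19.0 ± 1.91 FPKM at 8 h (SD, n = 3 each). AN3735, named after its values were seen, read 14.02, 13.3 and 13.0 FPKM in BglC at 2 h, against 24.6, 28.6 and 26.98 in AbfA, 30.6, 29.1 and 27.2 in 1542, and 23.9, 25.0 and 24.5 in A773. AN2276 (mpt in the names table) averaged 10.7 ± 1.07 FPKM in BglC at 2 h, 18.8 ± 2.76 in AbfA, 19.5 ± 2.46 in 1542 and 22.6 ± 0.578 in A773 (SD, n = 3 each). In these 3 genes no BglC library overlapped another strain at 2 h. AN6109 was as steady, at 36.5, 34.0 and 35.0 FPKM in BglC at 2 h, against 76.2, 65.3 and 73.0 in AbfA, 90.2, 76.7 and 74.4 in 1542, and 61.2, 59.3 and 64.4 in A773. With median-of-ratios scaling AN5633 still met the rule, and AN3735, AN2276 and AN6109 did not.

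Abundant lower genes were AN0443, AN0841, AN11261, AN11882 and AN7374. None of them met the rule with median-of-ratios scaling. AN0443 read 113, 204 and 159.5 FPKM in BglC at 2 h, against 335, 300.4 and 307 in AbfA, 388, 394 and 354 in 1542, and 277, 281 and 230.2 in A773. AN0841 read 93.4, 92.9 and 87.3 FPKM in BglC at 2 h, against 771, 208 and 303 in AbfA, 288, 279.5 and 363 in 1542, and 171, 166 and 143 in A773. Neither overlapped at 2 h. AN11261 averaged 64.4 ± 15.5 FPKM in BglC at 8 h, 134 ± 19.6 in AbfA, 111 ± 15.4 in 1542 and 111 ± 19.4 in A773, and AN11882 averaged 68.5 ± 36.9, 139 ± 27.4, 121 ± 12.5 and 110.5 ± 17.8 FPKM in the same order (SD, n = 3 each). In AN11882 the highest BglC library, at 109 FPKM, lay above the lowest A773 and 1542 libraries (95.3 and 108 FPKM). AN7374 read 51.5, 53.2 and 40.4 FPKM in BglC at 8 h, against 129, 124 and 122 in AbfA, 111, 99.2 and 104 in 1542, and 196, 137 and 152 in A773, with no overlap.

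AN8532, AN2019, AN8116 and AN2479 lay between these and the faint genes. AN8532 read 3.96, 6.49 and 2.05 FPKM in BglC at 2 h, against 22.7, 18.2 and 23.3 in AbfA, 18.9, 17.7 and 21.3 in 1542, and 9.83, 9.37 and 6.92 in A773. AN2019 averaged 7.20 ± 4.25 FPKM in BglC at 2 h, 17.3 ± 2.61 in AbfA, 26.2 ± 5.53 in 1542 and 14.1 ± 5.52 in A773, and AN8116 averaged 5.13 ± 2.66, 14.7 ± 0.459, 10.7 ± 0.843 and 30.9 ± 7.28 FPKM (SD, n = 3 each). AN2479 averaged 10.7 ± 1.99, 35.5 ± 13.3, 41.8 ± 1.39 and 19.5 ± 1.62 FPKM at 2 h in the same order. AN4687 read 14.5, 7.60 and 3.47 FPKM in BglC at 2 h, against 17.3, 63.1 and 77.8 in AbfA, 44.5, 50.4 and 56.5 in 1542, and 14.8, 12.7 and 13.2 in A773, so BglC and A773 overlapped.

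Some lower genes were scattered in another strain or faint throughout. AN20017 read 14.8, 9.24 and 13.6 FPKM in BglC at 8 h, against 29.9, 385 and 21.8 in AbfA, 19.4, 57.9 and 17.1 in 1542, and 72.9, 23.8 and 29.7 in A773. AN1737 read 0.119, 0.351 and 0.466 FPKM in BglC at 2 h, against 1.48, 3.56 and 2.82 in AbfA, 1.19, 1.09 and 1.797 in 1542, and 1.51, 1.82 and 1.47 in A773. AN11825 averaged 1.02 ± 0.307 FPKM in BglC at 2 h, 4.84 ± 0.754 in AbfA, 6.98 ± 0.882 in 1542 and 2.52 ± 0.471 in A773 (SD, n = 3 each). The remaining lower genes, AN7399, AN4587, AN1169, AN12307, AN9308, AN2577, AN11865 and AN6011, averaged 1.62 to 31.8 FPKM in BglC at 2 h, and 3.40 to 68.2 FPKM in A773.

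The median coding length was 1167 bases for the higher genes and 726 for the lower genes, against 1263 over all genes passing the filter, a description with no test. Of the 37 higher genes, the strain nearest to BglC was AbfA for 6, 1542 for 13 and A773 for 18 at 2 h, and AbfA for 21, 1542 for 5 and A773 for 11 at 8 h. Of the 33 lower genes it was AbfA for 4, 1542 for 8 and A773 for 21 at 2 h, and AbfA for 13, 1542 for 8 and A773 for 12 at 8 h. The rule used these same values and no such count was made over all genes, so nothing is read from it.

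**Figure D4:**
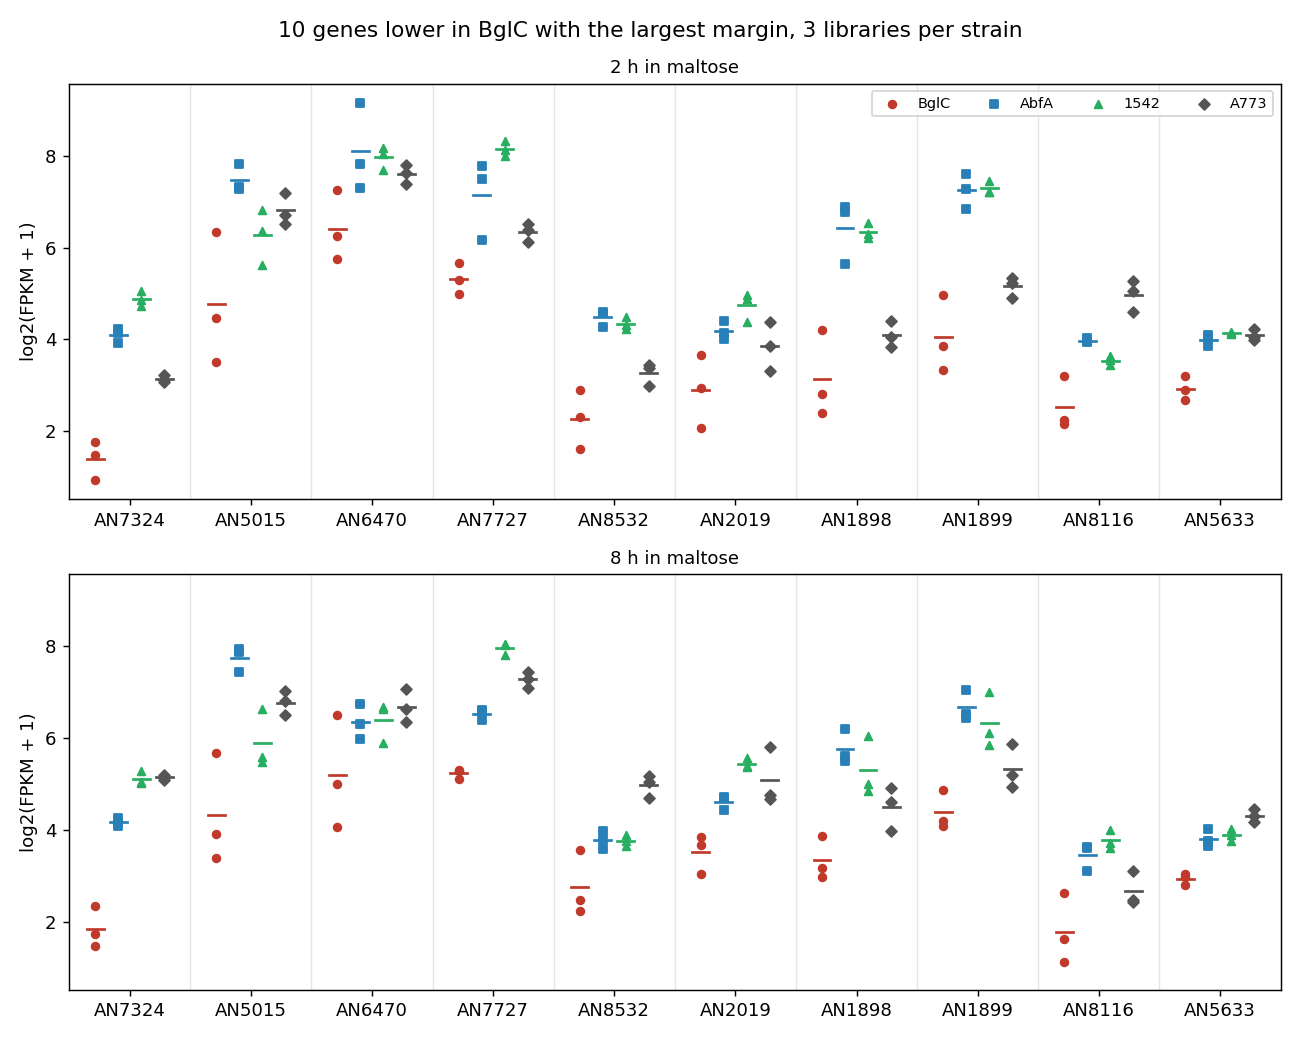
Levels, as log2(FPKM + 1), of the 10 lower genes with the largest margin, at 2 h (top) and 8 h (bottom), with 1 point per library and a bar at each group mean. The BglC mean lies lowest in every gene, and A773 lies nearest to it at 2 h in all but AN5015, AN8116 and AN5633. A BglC point reaches the other strains at 2 h in AN2019, AN1898 and AN1899, at 8 h in AN6470 and AN8116, and at both times in AN5015.

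The lower pair AN1898 and AN1899 belongs to a row of neighbours in tyrosine breakdown. The row holds hmgA (AN1897, homogentisate dioxygenase), fahA (AN1896, fumarylacetoacetate hydrolase), maiA (AN1895, maleylacetoacetate isomerase) and hmgX (AN1898), which is known in A. nidulans to be needed for homogentisate dioxygenase activity. hmgX (AN1898) read 17.5, 5.97 and 4.27 FPKM in BglC at 2 h, against 49.1, 108 and 116 in AbfA, 78.0, 72.4 and 92.1 in 1542, and 20.0, 15.7 and 13.2 in A773. At 8 h it read 13.6, 8.09 and 6.94 FPKM in BglC, 48.2, 72.3 and 44.2 in AbfA, 31.1, 28.1 and 65.3 in 1542, and 23.3, 29.2 and 14.7 in A773. BglC and A773 overlapped at 2 h through replicate 1 of BglC, while AbfA and 1542 lay far above both.

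AN1899 read 30.0, 13.5 and 9.01 FPKM in BglC at 2 h, against 114, 194 and 155 in AbfA, 147, 146 and 174 in 1542, and 36.3, 39.6 and 28.8 in A773. Its neighbours hmgA, fahA and maiA also averaged lowest in BglC, next in A773 and well above both in AbfA and 1542, with 2 h means of 16.2, 2.50 and 4.36 FPKM in BglC, 123.1, 30.7 and 54.1 in AbfA, 124, 28.9 and 40.6 in 1542, and 34.3, 3.36 and 7.27 in A773. All 3 were lower in BglC in all 6 comparisons, and each came short of the rule only against A773. The smallest difference from A773 was -0.39 for fahA, -0.67 for hmgA and -0.70 for maiA. AN1900, on the other side of AN1899, was higher in BglC by 0.10 to 1.13.

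The rule set no condition on differences among the other strains, although it used the same group means, and these differences were tested with limma over 9201 genes. Against A773 at 2 h, 13 of the 33 lower genes were higher and 1 was lower in AbfA, and 17 were higher and 2 lower in 1542. Among all genes 18.5% were higher and 13.5% lower in AbfA, and 22.1% were higher and 16.1% lower in 1542. The change was above 0 in 26 of the 33 in AbfA and in 22 in 1542, whether or not it passed. The median change of the 33 was 0.51 in AbfA and 0.37 in 1542, against 0.04 and 0.05 over all genes tested. Both comparisons share the A773 libraries. A773 was the strain nearest to BglC at 2 h for 21 of the 33, and in such genes both changes lie above 0. The counts and medians here and in the same comparisons below are thus a description, and nothing is read from an excess over all genes.

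hmgX (AN1898) was higher than in A773 at 2 h by 2.34 ± 0.42 in AbfA (SE, adjusted p = 0.00048) and by 2.25 ± 0.42 in 1542 (adjusted p = 0.00045). AN1899 was higher by 2.09 ± 0.35 in AbfA (adjusted p = 0.00032) and by 2.13 ± 0.35 in 1542 (adjusted p = 0.0002). AN7324 was higher by 0.96 ± 0.19 in AbfA (adjusted p = 0.0012) and by 1.74 ± 0.19 in 1542 (adjusted p = 8.5e-06). AN8116 went the other way, lower by 1.43 ± 0.31 in 1542 (adjusted p = 0.0015). The side of A773 on which BglC lay was set by the rule.

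At 8 h fewer of the lower genes differed, with 3 up and 5 down in AbfA against A773, and 2 up and 3 down in 1542. Among all genes 11.3% rose and 16.6% fell in AbfA, and 5.42% rose and 12.7% fell in 1542. AN0500, which did not meet the rule with median-of-ratios scaling, was the widest of these. It read 150.5, 76.5 and 131 FPKM in AbfA and 115, 147 and 122.7 in 1542 at 8 h, against 12.6, 6.07 and 17.7 in A773, and BglC lay at 10.6, 6.86 and 2.58. It was higher than in A773 by 3.25 ± 0.36 in AbfA (adjusted p = 5.7e-06) and by 3.40 ± 0.36 in 1542 (adjusted p = 2.3e-06). AN8532 was lower than in A773 by 1.19 ± 0.29 in AbfA (adjusted p = 0.0055) and 1.21 ± 0.29 in 1542 (adjusted p = 0.0065).

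The higher genes were mixed in the same comparisons. At 2 h 5 of 37 (13.5%) were higher and 4 (10.8%) lower in AbfA than in A773, against 18.5% and 13.5% of all genes. In 1542 2 (5.41%) were higher and 7 (18.9%) lower, against 22.1% and 16.1%. AN3551 was lower than in A773 by 2.04 ± 0.34 in AbfA (adjusted p = 0.00031) and by 2.75 ± 0.34 in 1542 (adjusted p = 2.2e-05). AN1806 was lower by 1.84 ± 0.38 in AbfA (adjusted p = 0.0014) and by 2.45 ± 0.38 in 1542 (adjusted p = 0.00011). AN3883 was higher in AbfA than in A773 at 2 h by 1.14 ± 0.23 (adjusted p = 0.0014). At 8 h 5 were higher and 0 lower in AbfA, against 11.3% and 16.6% of all genes, and 0 were higher and 1 lower in 1542, against 5.42% and 12.7%. That last gene was AN3883, and its call was lost without any 1 of the A773 libraries of 8 h or without replicate 1 or 3 of 1542 (adjusted p = 0.056 to 0.12).

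Between 1542 and AbfA few genes differed, among the 70 as among all genes. At 2 h 3 passed the test, AN3883 lower and AN7324 and AN7727 higher in 1542, against 1.72% of all genes higher and 1.23% lower. At 8 h 4 passed, against 2.04% higher and 4.77% lower. AN7727 was higher in 1542 than in AbfA at 8 h by 1.43 ± 0.27 (adjusted p = 0.0042) and AN7324 by 0.94 ± 0.19 (adjusted p = 0.0068). AN3883 was lower by 1.51 ± 0.23 (adjusted p = 0.0013), and AN7990 by 2.90 ± 0.60 (adjusted p = 0.0073), at 4.86, 18.1 and 6.46 FPKM in 1542 against 50.4, 75.8 and 87.0 in AbfA. None of the 3 calls at 2 h passed when only the libraries compared were fitted. The call of AN7727 at 2 h was lost in 26 of 32 other settings, and that of AN7324 without replicate 2 or 3 of either strain (adjusted p = 0.07 to 0.12).

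The rule set no condition on change with time within a strain, although it used the same group means at both times. The counts of genes that rose or fell are therefore a description, with the shares of all genes beside them. In BglC 5 of the 37 higher genes rose and 7 fell between 2 h and 8 h, and 2 of the 33 lower genes rose and 3 fell, against 21.7% of all genes up and 10.6% down. In A773 7 higher genes rose and 10 fell, and 7 lower genes rose and 4 fell, against 31.4% up and 16.8% down. In AbfA 3 higher genes rose and 2 fell, and 0 lower genes rose and 3 fell, against 10.9% and 8.14%. In 1542 2 higher genes rose and 2 fell, and 1 lower gene rose and 5 fell, against 8.62% and 9.18%.

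AN7081, of the row beside fma-AT, rose with time in all 4 strains. In BglC it averaged 30.8 ± 5.00 FPKM at 8 h, against 10.1 ± 5.50 FPKM at 2 h (SD, n = 3 each). Its change was 1.62 ± 0.25 in BglC (adjusted p = 0.00012), 1.52 ± 0.25 in AbfA (adjusted p = 0.00042), 1.13 ± 0.25 in 1542 (adjusted p = 0.0053) and 2.18 ± 0.25 in A773 (adjusted p = 1.1e-06). AN5324 rose by 1.52 ± 0.30 in BglC (adjusted p = 0.00089) and by 2.03 ± 0.30 in A773 (adjusted p = 2e-05). AN0284 rose by 0.97 ± 0.13 in BglC (adjusted p = 2.9e-05).

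Some higher genes fell with time in BglC and in A773. AN3551 fell by 1.91 ± 0.34 in BglC (adjusted p = 0.00039) and by 2.19 ± 0.34 in A773 (adjusted p = 3.6e-05). AN1806 fell by 1.10 ± 0.38 in BglC (adjusted p = 0.031) and by 2.55 ± 0.38 in A773 (adjusted p = 1.9e-05). AN7058 fell in A773 by 2.41 ± 0.55 (adjusted p = 0.0014), at 4.03, 4.49 and 1.69 FPKM at 8 h against 38.2, 22.5 and 11.2 at 2 h, and in BglC it read 20.6, 49.6 and 40.7 FPKM at 8 h against 21.4, 83.5 and 43.7 at 2 h. AN0005 fell in BglC by 1.83 ± 0.33 (adjusted p = 0.00042).

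Of the lower genes, AN0500 fell by 2.22 ± 0.36 in BglC (adjusted p = 0.00016) and by 3.99 ± 0.36 in A773 (adjusted p = 5e-08). In A773 it read 12.6, 6.07 and 17.7 FPKM at 8 h against 186, 220.2 and 173 at 2 h, and in AbfA it averaged 119 ± 38.4 FPKM at 8 h and 122 ± 8.30 FPKM at 2 h (SD, n = 3 each). AN9308 rose by 1.01 ± 0.20 in BglC (adjusted p = 0.00077) and by 1.65 ± 0.20 in A773 (adjusted p = 1.5e-06). AN7324 rose in A773 by 2.01 ± 0.19 (adjusted p = 1.1e-07), and AN8532 rose there by 1.71 ± 0.29 (adjusted p = 7.5e-05).

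**Figure D5:**
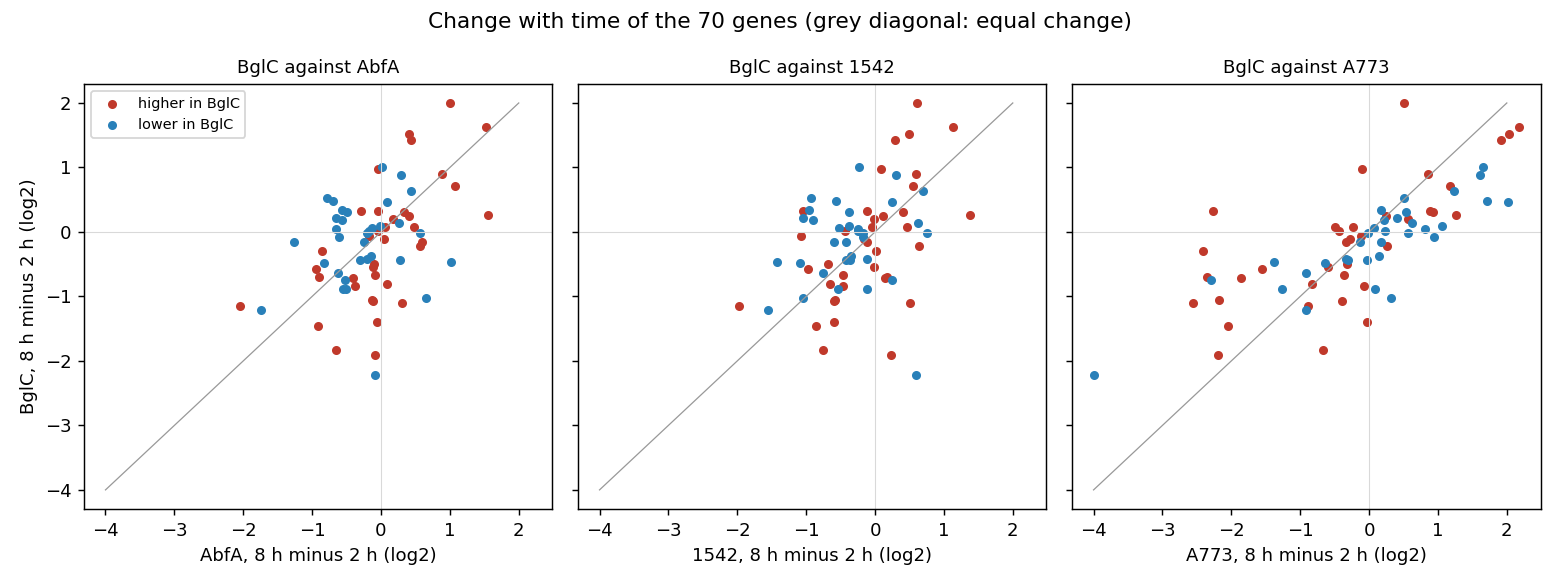
Change from 2 h to 8 h in log2(FPKM + 1) of the 70 genes in BglC (vertical axis) against the change in AbfA, 1542 and A773 (horizontal axes), with the grey diagonal marking equal change. AN0500 lies at the far left of the A773 panel, at -3.99 in A773 and -2.22 in BglC, and AN7081 lies at the upper right, at 2.18 in A773 and 1.62 in BglC.

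Whether the gap between BglC and the mean of the other strains itself changed with time was tested for each gene. The rule bounds the gap at each time but not which is wider. In the fit without a replicate block AN0284 alone passed: its gap was 6.22 to 6.31 at 8 h and 5.15 to 5.39 at 2 h, a change of 0.99 ± 0.15 (adjusted p = 0.001). Among all genes 5.91% passed upward and 4.40% downward. With replicate numbers as a block within each strain, which pairs the BglC libraries of 2 h and 8 h, 4 genes passed. AN0284 widened again (adjusted p = 0.0058), and the other 3 gaps were narrower at 8 h. For the higher genes AN3551 and AN0005 the change was -1.23 ± 0.28 (adjusted p = 0.021) and -1.14 ± 0.26 (adjusted p = 0.02), and for the lower gene AN1899 it was 0.79 ± 0.22 (adjusted p = 0.04).

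Within BglC, replicate 1 lay nearest to the other strains for most of these genes. It was the nearest of the 3 BglC libraries for 22 of 37 higher genes at 2 h and 20 at 8 h, and for 20 and 22 of the 33 lower genes. The same count over all genes was not made, so whether this is particular to these genes is not known. Summed, spore and conidiophore genes were also highest in replicate 1 of BglC. The summed level of the 19 conidiation genes listed was 4311 FPKM in replicate 1 of BglC at 2 h against 1799 and 2090 in replicates 2 and 3, and 2810 against 1816 and 1499 at 8 h. Other strains spanned 2346 to 5926 FPKM at 2 h and 1358 to 4936 at 8 h. None of the 19 was among the 70 genes, at most 1 of them averaged below 1 FPKM in BglC at either time, and their part in the results was not tested. In bulk RNA, fewer cells of a type and less RNA per cell cannot be told apart. Without replicate 1 of BglC at both times, 29 of the 37 higher genes and 27 of the 33 lower genes met the rule.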

How the data were processed

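RNA of mycelium was made into stranded TruSeq libraries, per the labels' protocols. The authors deposited 1 table of FPKM values for 10631 genes in 24 libraries. Per the submitters' processing notes the tools included HTSeq 0.6.0, SAMtools 0.1.18, bcl2fastq 1.8.4, DESeq2 and FastQC, with no role stated. No aligner, genome build, annotation or strand setting is given in the sources used here, so overlapping, antisense or near-identical genes may share reads. Whole reads were recovered from the FPKM steps for all 10631 genes (100.0%, tolerance 0.001). The scale of the gene lengths was set on the premise that they are coding lengths, which are multiples of 3. The lengths so found were multiples of 3 for 8770 of the 8791 genes with at least 500 reads. That count follows from the premise and is no test of it, so FPKM per coding length is an assumption here.

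Rows of the 3 introduced genes were left out of the rule. Comparisons used limma (version 3.58.1, R 4.3.3) and log2(FPKM + 1) values, with a variance trend. One fit held the 8 group means over 24 libraries and the 9201 genes of at least 1 FPKM in at least 3 libraries. Tests were two-sided with Benjamini-Hochberg adjustment within each comparison and a threshold of 0.05. The fit was also run on simulated reads for BglC at 8 h against 2 h. These had independent libraries and the same setting of spread for every gene, so they do not show how it does with unequal spread. Fold changes on this scale understate the change of faint genes. Values after ± are SE beside a change and SD beside a mean FPKM.

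Names and gene order came from the RefSeq table of assembly ASM1142v1, which held 9938 of the IDs; the 22 gene lists came from textbook knowledge. The members and lists were chosen with earlier results of these data known. Named genes were, for each direction, the 10 with the largest margin, those with a symbol or in a list, those at the edge of the rule, those with a member within 2 genes, and the 3 called genes with the largest change each way per comparison. Replicate numbers paired the BglC libraries of 2 h and 8 h by correlation of their deviations (r = 0.589, 0.154 and 0.327, each over 0.1), as no other pair of groups did.

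The alternatives were other thresholds, pseudocounts of 0.1 and 5, no filter, median-of-ratios scaling, voom on the recovered reads, a fit of only the libraries compared, replicate blocks, and each library left out in turn. The block within each strain and the fit without replicate 1 of BglC were added after seeing the data.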

Additional observations from a re-analysis of the deposited data

Results flagged for a closer look

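The gap of AN0284 between BglC and the mean of the other strains was wider at 8 h than at 2 h, and a test of that difference between the 2 times passed over all genes. That test used the group means by which the rule also chose the gene. The change was 0.99 ± 0.15 on the log2(FPKM + 1) scale (limma, SE, adjusted p = 0.001). All 3 BglC libraries read higher at 8 h (131, 108 and 124 FPKM) than at 2 h (53.5, 59.9 and 71.8 FPKM), while AbfA, 1542 and A773 stayed below 1 FPKM at both times. Over the 33 other settings the change ran from 0.83 to 1.10, with an adjusted p of at most 0.02.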

How the results depend on the processing

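The number of genes set apart depended on the settings, since many lie near the threshold. Higher and lower genes numbered 92 and 103 at a threshold of 0.5, 14 and 4 at 1.0, 82 and 58 with a pseudocount of 0.1, and 20 and 10 with a pseudocount of 5. With median-of-ratios scaling, which moves the median of all genes in BglC comparisons by 0.05 to 0.14, they numbered 61 and 13. All 37 higher genes remained under that scaling, but only 13 of the 33 lower genes. These were the 10 with the largest margin, and AN7399, AN1737 and AN2479. Without replicate 1 of BglC at both times they numbered 66 and 73. Leaving out 1 library at a time gave 34 to 57 higher and 20 to 56 lower genes. The extremes came without BglC replicate 1 of 2 h (57 higher), BglC replicate 3 of 2 h (20 lower) and BglC replicate 1 of 8 h (56 lower). In all 24 of these fits 19 higher and 7 lower genes were kept.

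Calls among the 70 genes moved with the libraries that entered the fit. With only the libraries compared, calls numbered 11 for BglC over time, 23 for 1542 over time, 31 for AbfA against A773 and 12 for 1542 against A773 at 8 h, and 0 at 2 h and 11 at 8 h for 1542 against AbfA, where the full fit gave 17, 10, 13, 6, 3 and 4. A pseudocount of 0.1 left 1 call for 1542 against AbfA at 2 h. Without replicate 1 of BglC at both times 1542 against A773 at 8 h gave 11. The change of the BglC gap gave 5 calls with a pseudocount of 5, 4 with scaling, 3 with a replicate block, 4 with the block within each strain and 2 without replicate 1 of BglC at both times. These blocks moved no other count by over 1.5 times. The replicate block ended the calls of AN1737 in 1542 over time (adjusted p = 0.061), of AN7727 in 1542 against AbfA at 2 h (0.05) and of AN8439 in AbfA against A773 at 2 h (0.053). The first was lost with the block within each strain too (0.1).

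Leaving out 1 library at a time gave 13 to 24 calls for BglC over time, 25 to 31 for A773, 5 to 12 for AbfA and 3 to 14 for 1542. It gave 1 to 6 for the change of the BglC gap, 14 to 24 and 5 to 19 for AbfA against A773 at 2 h and 8 h, 19 to 30 and 3 to 8 for 1542 against A773, and 1 to 5 and 4 to 7 for 1542 against AbfA. Counts fell by over 1.5 times without AbfA replicate 1 of 8 h (5 for AbfA over time), and without 1542 replicate 1 of 2 h (4), 1 of 8 h (3) or 2 of 8 h (4) for 1542 over time. They fell likewise without A773 replicate 2 (15) or 3 (15) or AbfA replicate 2 (14) or 3 (15) for AbfA against A773 at 2 h, and without A773 replicate 1 (6) or 3 (5) or AbfA replicate 1 (6), 2 (8) or 3 (7) for the same at 8 h. Without A773 replicate 1 of 8 h 1542 against A773 at 8 h gave 3. For 1542 against AbfA, 1 call at 2 h was left without 1542 replicate 2 or 3 or AbfA replicate 2, and leaving out AbfA replicate 1 of 2 h gave 5 at 2 h and 7 at 8 h. For the change of the BglC gap, 6 calls came without AbfA replicate 1 of 2 h, 5 without BglC replicate 1 of 2 h, 4 without BglC replicate 1 of 8 h, 3 without BglC replicate 2 of 2 h, and 2 without any of BglC replicate 2 of 8 h, AbfA replicate 2 of 2 h or 3 of 8 h, 1542 replicate 1 of 2 h, and A773 replicate 2 or 3 of 8 h. Of 82 single values tried, 46 kept their call in every setting, 36 lost it in at least 1, and 0 changed sign. The cause of these moves was not tested.

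Depth limited how well faint genes were measured. The least read of the higher genes had 154 reads over all 24 libraries and of the lower genes 103, and 11 higher and 3 lower genes stayed under 10 FPKM in every group. Of the 70 genes, 5 were not in the names table.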
